A study of Mus musculus with 3 samples.

Results

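The 9 genes described here, Fos, Fosb, Jun, Junb, Egr1, Ier2, Ier3, Atf3 and Btg2, are immediate early genes. They were chosen by symbol from the 52636 mouse genes of 3 count tables, and each symbol occurred once. The tables hold Smart-SCRB data, a plate-based single-cell RNA sequencing assay in which each sorted cell has a well barcode and each captured transcript a unique molecular identifier (UMI). The question was whether acute loss of cohesin, the ring-shaped complex that extrudes chromatin loops, changes how often, how strongly and how jointly these genes are expressed in single mouse embryonic stem (ES) cells.

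Every cell came from JM8.N4, a feeder-free ES cell line of the C57BL/6N strain, edited so that the cohesin subunit RAD21 carries an auxin-inducible degron and the plant receptor TIR1 marks it for destruction when auxin is added. Control and auxin cells therefore share the same edited background, and all were grown on gelatin in serum with LIF and 2i, the MEK inhibitor PD0325901 and the GSK3 inhibitor CHIR99021. Auxin cells received 500 μM indole-3-acetic acid for 6 h, and control cells none. The series has 3 replicates, each with both conditions. In replicate 1 the plates are named RAD21 positive and RAD21 negative and were read as control and auxin.

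Immediate early genes are switched on within minutes of a signal, without new protein synthesis, by transcription factors that are already in the cell. Growth factor signals reach many of them through the RAS, MEK and ERK kinases and serum response factor, and their transcripts decay quickly, so that a cell holds the RNA only for a short time. FOS and JUN family proteins pair to form the AP-1 transcription factor, and EGR1 is a zinc finger factor downstream of ERK. IER2 and IER3 are small early response proteins, ATF3 is a stress-induced partner of AP-1 proteins, and BTG2 is an antiproliferative protein that is also induced by p53.

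Some libraries stood apart and are described first. For 2 of the 4 plates of replicate 3 the deposited condition and the condition in the study's source values are opposite, so their 168 cells were left out, and replicate 3 rests on 1 plate per condition. Of 1536 wells on 16 plates, 1167 entered the main comparison: replicate 1 gave 168 control and 169 auxin cells, replicate 2 gave 371 and 290, and replicate 3 gave 85 and 84, each with more than 2600 detected genes. Control and auxin cells held a median of 104443 and 113617 UMIs (replicate 1), 143842 and 187088 (replicate 2), and 72317 and 75377 (replicate 3). In replicate 2, 88 to 95 of 96 wells passed on control plates and 71 to 74 on auxin plates. No cell name was shared between replicates, and each replicate used the same 96 well positions. The ES cell markers varied between replicates: Tfcp2l1, a naive pluripotency factor, was at 239 to 329 CPM (UMIs of a gene over all UMIs of the set, scaled to a common total) in replicates 1 and 3 but at 2.52 to 4.10 in replicate 2, Nanog at 495 to 563 against 38.9 to 58.6, and Sox2 was listed at 0 in every cell of replicates 2 and 3. Whether the gene annotation behind the counts was the same in all replicates is not given in the sources used here, so this 0 is not read as a level of Sox2. The fibroblast markers summed to 1.87 to 27.3 CPM. Rad21 mRNA, which the degron does not target, was at 20.9, 31.2 and 42.4 CPM in control and at 19.3, 34.0 and 45.2 in auxin cells.

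Jun, Btg2, Junb, Ier2 and Atf3 are the members whose positions bear on the results. In mm10, Jun lies on chromosome 4 (95049034 to 95052222, minus strand) and overlaps Junos, an antisense gene. Btg2 (134075170 to 134079120, minus strand) and Atf3 (191170296 to 191218039, minus strand) lie on chromosome 1, separated by 57.091 Mb. Junb (84974484 to 84978718, minus strand; it overlaps Prdx2) and Ier2 (84661331 to 84662852, minus strand) lie on chromosome 8, 0.312 Mb apart. These are the 2 pairs in cis, and the other 34 of the 36 pairs join different chromosomes. Because Jun and Btg2 are the members whose level rose with auxin over the plates of replicate 2, the 250 bases before their transcription starts are shown (RefSeq, GRCm38.p6; 7 of the 9 members have an entry, Ier2 and Egr1 do not). Capitals mark matches, on either strand, to the cAMP response element TGACGTCA, the AP-1 element TGACTCA, its variant TGACATCA, the TATA motif TATAAA or the CArG box bound by serum response factor. A CArG box can contain TATAAA, and the other motifs do not contain each other.
Jun chr4:95052223-95052472, minus strand: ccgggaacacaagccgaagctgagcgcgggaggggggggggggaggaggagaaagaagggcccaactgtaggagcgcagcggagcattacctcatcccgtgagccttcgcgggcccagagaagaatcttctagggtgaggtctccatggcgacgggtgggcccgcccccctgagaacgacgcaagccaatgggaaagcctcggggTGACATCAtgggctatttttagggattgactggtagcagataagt
Btg2 chr1:134079156-134079405, minus strand: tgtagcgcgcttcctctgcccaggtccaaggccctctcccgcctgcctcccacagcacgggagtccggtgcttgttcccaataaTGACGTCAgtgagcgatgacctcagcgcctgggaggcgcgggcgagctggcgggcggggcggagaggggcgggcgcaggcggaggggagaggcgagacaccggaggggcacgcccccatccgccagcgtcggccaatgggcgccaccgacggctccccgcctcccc
The Jun window held TGACATCA from 45 bases before the start, and the Btg2 window held TGACGTCA from 166 bases before it. Of 32851 promoters of this length, 2.93% held TGACATCA, 1.55% TGACGTCA, 4.46% TGACTCA, 12.4% TATAAA and 1.47% a CArG box. Among the 7 members, Fos alone held TATAAA, from 33 bases before its start, and no member window held TGACTCA or a CArG box. A match is a description of the letters in these windows only.

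Detection was compared after each cell was thinned at random to 20000 UMIs, because depth differed, and the unthinned values are given beside it. A positive cell is one with at least 1 UMI. Fos, the AP-1 partner that cannot pair with itself, was positive in 1.79% of control and 2.96% of auxin cells of replicate 1 and in 8.26% and 9.39% of replicate 2. It was found in 0 of 84 control and 0 of 79 auxin cells of replicate 3, counts that allow shares of cells with a UMI at this depth of up to 3.57% and 3.80% (3 counts of the total), which does not limit the share that expresses Fos. Unthinned, the replicate 2 shares were 15.6% and 14.5%. Fosb, its close relative, was positive in 0% to 2.53% of thinned cells in every replicate and condition. In replicate 3 the deeper, unthinned counts held Fos in 1 of 85 control cells. Few cells carried these counts: 1 control cell of replicate 1 gave 22 of the 38 Fos UMIs of its set. As a gauge of stray UMIs, 6 of 8 genes of other tissues were positive in at most 2.75% of thinned cells in any set, Myh6 in up to 4.33% and Cd3e in up to 16.5%. The highest Cd3e share was that of the auxin cells of replicate 3, where Jun, Junb, Ier3 and Atf3 were all below it. The Fosb shares, and the Fos shares outside replicate 2, lay within or close to that background and are not read as expression.

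Jun, which can form AP-1 with itself or with a FOS protein, was positive in 4.60% and 4.94% of thinned cells on the control plates of replicate 1 and in 5.56% and 5.06% on its auxin plates. In replicate 2 it was positive in 7.53%, 5.75%, 5.43% and 8.79% of cells on the control plates and in 18.3%, 19.1%, 14.5% and 17.4% on the auxin plates. The auxin plates of replicate 2 lay above its control plates, and the 4 plates of replicate 1 spanned 4.60% to 5.56%. In replicate 3 the shares were 2.38% and 2.53%, at the level of the background. The difference in share was 0.56, 10.4 and 0.15 percentage points in the 3 replicates, the last from 2 of 84 and 2 of 79 cells. Positive cells of replicate 2 held 2.84 thinned Jun UMIs in control and 3.92 in auxin cells, but the plates overlapped (2.00 to 4.00 and 2.42 to 5.00), and in replicate 1 they held 2.38 and 1.89. Unthinned, 48 of 371 control and 80 of 290 auxin cells of replicate 2 were positive, with 5.73 and 16.1 UMIs per positive cell.

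Junb, a JUN family member, was lower in auxin cells of replicates 1 and 3 and higher in those of replicate 2. Its thinned share was 20.7% and 18.5% on the control plates of replicate 1 against 15.6% and 10.1% on the auxin plates, and 23.8% against 13.9% in replicate 3. In replicate 2 it was 2.30% to 8.79% on control plates and 4.23% to 15.9% on auxin plates, which overlap. A single cell on an auxin plate of replicate 2 held 218 of the 565 Junb UMIs of that set.

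Egr1, the member most closely tied to ERK signalling, was nearly confined to replicate 2. Thinned, it was positive in 49.5%, 40.2%, 35.9% and 47.3% of cells on the control plates of replicate 2 and in 15 of 71, 17 of 68, 21 of 69 and 24 of 69 cells on the auxin plates (21.1% to 34.8%). Elsewhere 1 of 168 and 0 of 169 cells of replicate 1 and 0 of 84 and 1 of 79 cells of replicate 3 were positive. Unthinned, 235 of 371 control and 124 of 290 auxin cells of replicate 2 held an Egr1 UMI (63.3%, exact Clopper-Pearson 95% interval 58.2% to 68.3%, and 42.8%, 37.0% to 48.7%), against 2 of 168 and 0 of 169 in replicate 1. These intervals and limits cover counting error only. The Egr1 shares outside replicate 2 lay within the background of the genes of other tissues. Another ERK target was higher in replicate 2 as well: Dusp6, a phosphatase that turns ERK off, stood at 52.4 and 71.7 CPM in its control and auxin cells and at 3.07 to 6.43 in the other replicates. Spred2, another inhibitor of the pathway, stood at 55.1 and 55.2 there, at 37.9 and 32.8 CPM in replicate 3, and at 4.27 and 4.26 CPM in replicate 1. The 12 ERK feedback genes summed to 340 to 360 CPM in replicate 2, 317 to 355 in replicate 3 and 181 to 197 in replicate 1. The labels state the MEK inhibitor for all 3 replicates, and the part of the medium, of the culture or of the naive markers above in the Egr1 difference was not tested.

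Ier2, an early response gene, was positive in nearly every cell: in 98.2% of both conditions of replicate 1, in 97.8% of control and 91.3% of auxin cells of replicate 2, and in 94.0% and 96.2% of replicate 3. Its thinned UMIs per positive cell were 10.9 and 11.2, 8.97 and 9.08, and 8.37 and 7.71. In replicate 2, 24 of 277 thinned auxin cells and 8 of 363 control cells had no Ier2 UMI. In both conditions those cells were shallower than the rest, with a median of 105318 against 196522 UMIs in auxin and 26790 against 147496 in control cells. Ier3, a regulator of cell death, was positive in 2.38% and 3.55% of thinned cells of replicate 1, 7.71% and 10.1% of replicate 2 and 2.38% and 7.59% of replicate 3. Its mean difference was 2.93 percentage points ± 2.07 (SD, n = 3), and 1.78 without replicate 3. Thinned to 50000 UMIs it was lower in replicate 2, at 16.8% in control and 13.7% in auxin cells, and the control shares of 2.38% are no higher than those of the genes of other tissues. Its level was at 2.29 and 2.62 CPM on control and 2.26 and 2.43 on auxin plates of replicate 1, at 7.01 to 11.6 and 6.57 to 8.98 in replicate 2, and at 1.65 and 4.79 in replicate 3.

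Atf3, the stress-induced repressor, was positive in 3.57% and 7.69% of thinned cells of replicate 1, 13.5% and 8.66% of replicate 2 and 4.76% and 5.06% of replicate 3. Its plates overlapped between conditions in replicates 1 and 2. Btg2, the antiproliferative member, was positive in 54.0% and 48.1% of cells on the control plates of replicate 1 and in 41.1% and 34.2% on its auxin plates. In replicate 2 it was positive in 23.7%, 27.6%, 37.0% and 27.5% on control plates and in 52.1%, 63.2%, 50.7% and 53.6% on auxin plates. In replicate 3 the shares were 36.9% and 20.3%. Btg2 was thus higher in auxin cells of replicate 2 and lower in those of replicates 1 and 3, and its plates in replicate 2 did not overlap. The disputed plates of replicate 3, as deposited, held Btg2 in 30.5% of control and 26.0% of auxin cells, Junb in 18.3% and 17.8%, and Jun in 1.22% and 2.74%.

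**Figure D1:**
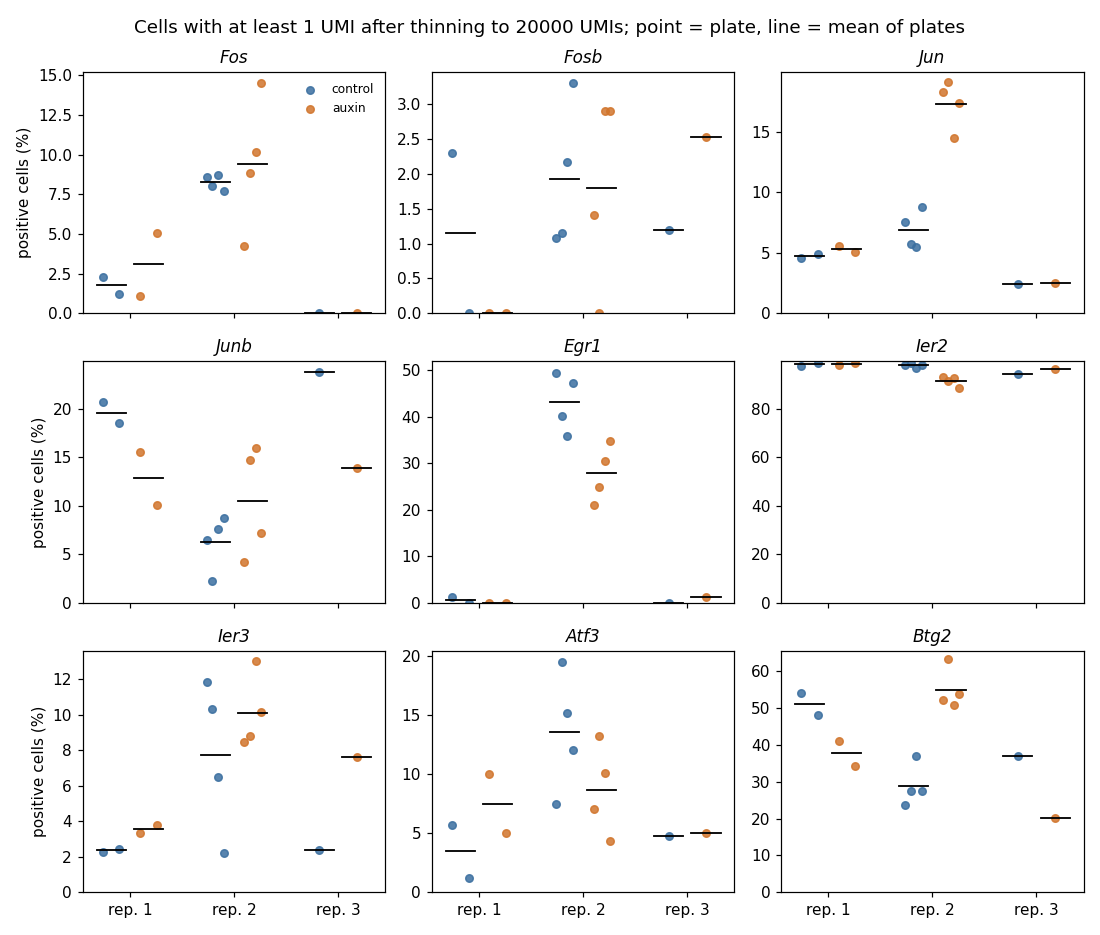
Percent of cells with at least 1 UMI after thinning to 20000 UMIs (vertical axes, each from 0) for the 9 genes, by replicate, with 1 point per plate and a line at the mean of the plates. The auxin plates of replicate 2 lie above its control plates for Jun and Btg2 and below them for Egr1 and Ier2, and Egr1 is near 0 in replicates 1 and 3.

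Across the members, the thinned shares on the 4 auxin and 4 control plates of replicate 2 did not overlap for Jun and Btg2 (auxin above; 3.22% of all 22493 genes behaved so) and for Egr1 and Ier2 (auxin below; 3.49% of all genes). The mean difference in share over 3 replicates was smaller than its SD for Jun, 3.72 ± 5.83 points, for Btg2, -1.34 ± 23.7 points, for Egr1, -4.93 ± 9.16 points, and for Junb, -4.13 ± 7.34 points. These are descriptions: an exact sign-flip permutation test over 3 replicates cannot give a two-sided p below 0.25.

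UMIs per positive cell were set against genes found in a like share of cells in replicate 2. In the control cells of replicate 2, genes positive in 5% to 20% of thinned cells had a median of 1.59 UMIs per positive cell (4830 genes). Jun at 2.84, Fos at 2.40, and Ier3 and Atf3, both at 1.82, lay above that median, and Junb at 1.35 below it, while Fosb, at 1.29, lay below the median of 1.33 of genes in 1% to 5% of cells. In auxin cells the median of this band was 1.67 (4895 genes), and Jun at 3.92, Junb at 3.48, Fos at 3.31, Atf3 at 2.04 and Ier3 at 1.71 all lay above. Egr1 and Btg2 lay above the medians of their bands as well: at 2.51 and 2.61 against 1.94 for genes in 20% to 50% of control cells. Ier2, at 8.97, was close to the median of 8.33 for genes in over 90% of control cells.

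**Figure D2:**
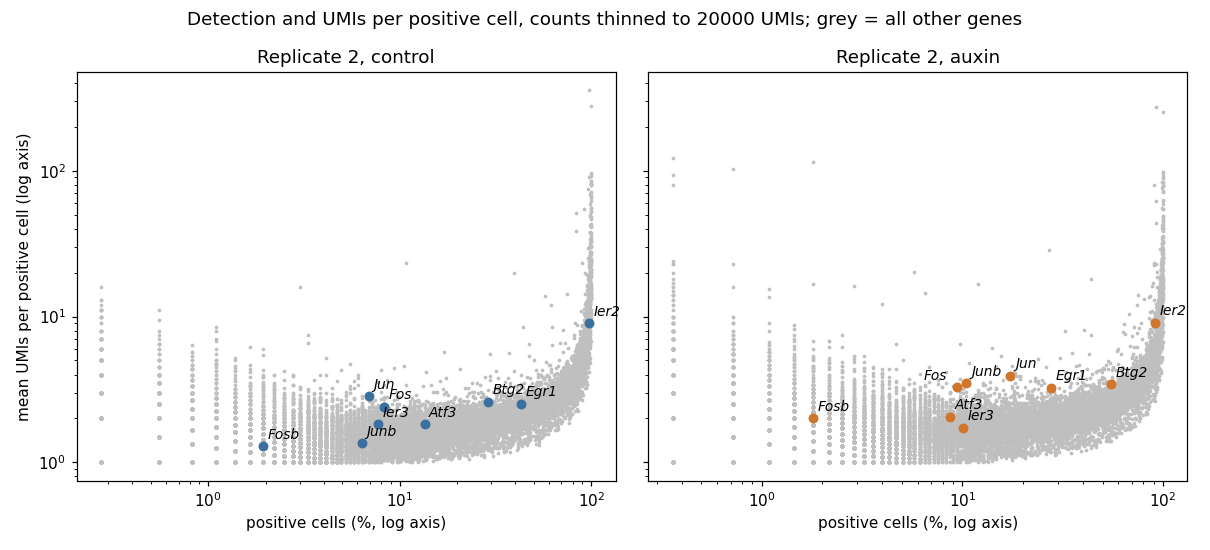
Mean UMIs per positive cell (vertical, log axis) against the percent of positive cells (horizontal, log axis) in replicate 2 after thinning to 20000 UMIs, control left and auxin right, with all other genes in grey. Jun moves from 6.89% and 2.84 UMIs to 17.3% and 3.92 UMIs with auxin.

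The level of each gene was then tested on counts summed per replicate and condition with edgeR's quasi-likelihood test and Benjamini-Hochberg adjustment over 17514 genes. None of the 9 members passed an adjusted p of 0.05, and neither did any other gene (0% called; 33 genes had an unadjusted p under 0.05, and DESeq2 called 0 with 168 unadjusted). In bulk sums, fewer expressing cells and less RNA per cell cannot be told apart. The log2 fold changes of auxin over control were 1.23 (SE 0.97) for Jun, 0.16 (SE 0.77) for Ier3, 0.08 (SE 0.73) for Atf3, -0.10 (SE 0.35) for Ier2, -0.19 (SE 0.61) for Btg2, -0.22 (SE 1.56) for Fos, -0.31 (SE 2.38) for Egr1, -0.50 (SE 1.35) for Fosb and -0.59 (SE 0.65) for Junb. Their median was -0.19, beside -0.00 for all genes. Once the replicate number entered as a block, edgeR passed 3 genes (0.0171%) and no member, with a median of -0.15 over the members. With the block the values were 0.81 (SE 0.55) for Jun, 0.29 (SE 0.43) for Ier3, 0.11 (SE 0.38) for Atf3 and -0.11 (SE 0.076) for Ier2. They were -0.15 (SE 0.36) for Btg2, -0.42 (SE 0.53) for Fos, -0.48 (SE 0.47) for Egr1, -1.004 (SE 0.93) for Fosb and -0.23 (SE 0.49) for Junb. Each SE was smaller than without the block, where it also holds the spread between replicates. In CPM, Ier2 and Fos were lower with auxin in 3 of 3 replicates, as were 14.7% of all genes, and no member was higher in all 3, as were 14.5%. For Fos this rests on counts within the background: 38 UMIs in control and 39 in auxin cells of replicate 1, and 5 UMIs of 1 cell against 0 in replicate 3. The value of Jun rested on replicate 2 and was -0.23 without it, and that of Btg2 was 0.52 without replicate 1 and -0.90 without replicate 2. With the disputed plates as deposited, Jun was at 1.30, Btg2 at -0.21 and Junb at -0.41, and with the placement of the source values at 1.05, -0.06 and -0.30.

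In CPM, the differences of Jun, Btg2 and Junb had opposite signs in replicates 1 and 2, whereas the Jun share differed by 0.56 points in replicate 1. Btg2 stood at 67.8 and 104 CPM on the control plates of replicate 1 and at 49.9 and 40.5 on its auxin plates. A single control cell of replicate 1 held 301 of the 1569 Btg2 UMIs of that set, and the highest auxin cell 68 of 875. In replicate 2 Btg2 stood at 33.8, 34.3, 43.6 and 43.4 on control and at 97.8, 83.8, 80.2 and 88.6 on auxin plates. In replicate 3 it was at 39.4 and 24.1. Every auxin plate of replicate 2 was thus above every control plate, and the auxin plates of the other replicates lay below their controls. Jun was at 4.17 and 4.99 on control and 2.46 and 3.20 on auxin plates of replicate 1, and at 1.81 and 3.14 in replicate 3. In replicate 2 it was at 4.18, 5.03, 6.04 and 7.17 on control and at 30.9, 21.9, 25.2 and 24.2 on auxin plates. The lowest of those auxin plates was well above the highest control plate. The highest 5 cells gave 27.5% of the Jun UMIs of these auxin cells and 30.2% in control. Junos, the antisense gene that overlaps Jun, was at 4.24 CPM in these control and 2.48 in these auxin cells.

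Junb was at 18.8 and 15.7 CPM on the control plates of replicate 1 and at 9.24 and 9.50 on its auxin plates, and at 22.1 and 8.82 in replicate 3. In replicate 2 it was at 3.85, 2.19, 4.16 and 5.63 on control and at 4.24, 6.67, 26.1 and 8.10 on auxin plates, of which the third holds the cell with 218 UMIs. Egr1 was at 44.1 to 57.1 CPM on the control and 26.2 to 63.9 on the auxin plates of replicate 2, so that its levels overlapped although its shares did not, and at 0 to 0.834 elsewhere. Ier2 was at 357 to 603 CPM on every plate compared. Atf3 was at 3.84 and 4.41 on control and 7.57 and 10.1 on auxin plates of replicate 1, at 7.79 to 14.7 and 3.91 to 11.7 in replicate 2, and at 3.30 and 2.99 in replicate 3. Fos ranged from 9.02 to 14.6 on control and from 4.24 to 15.5 on auxin plates of replicate 2 and reached at most 3.87 on the other plates compared, and Fosb stayed at 3.65 or below on all of them.

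**Figure D3:**
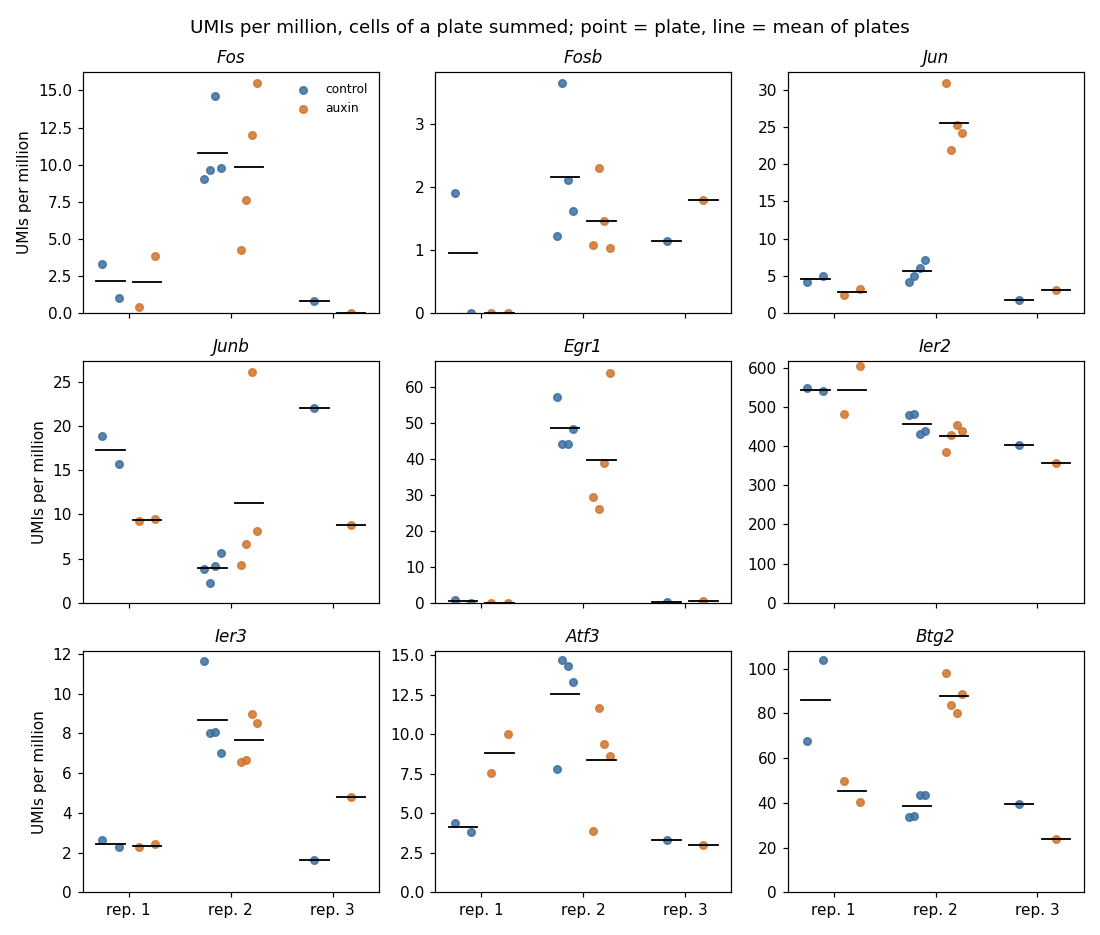
CPM over the summed cells of a plate (vertical axes, each from 0) for the 9 genes, with 1 point per plate and a line at the mean of the plates. Jun on the auxin plates of replicate 2 sits between 21.9 and 30.9, all above the control plates, and Btg2 between 80.2 and 97.8, above controls at 33.8 to 43.6.

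Because the replicates differed, edgeR was also fitted on sums per plate, a test chosen after the data were seen. Plates of a replicate share 1 culture, so that its p compares plates and not conditions. In replicate 2, with 4 plates against 4, Jun rose by 2.15 on the log2 scale (SE 0.23, edgeR adjusted p = 0.000154) and Btg2 by 1.14 (SE 0.15, adjusted p = 0.000985), 2 members of 9 beside 1.98% of 22493 genes. Junb differed by 1.48 (SE 0.46) with an edgeR adjusted p of 0.132, and by 0.65 without auxin plate 3 (adjusted p = 0.402). The other 6 members differed by -0.62 to -0.14. In replicate 1, with 2 plates against 2, no member passed (0.0845% of genes did). There Btg2 differed by -0.96 (SE 0.21) with an edgeR adjusted p of 0.113 and Jun by -0.73 (SE 0.36) with an adjusted p of 0.519. Leaving out single plates or using library totals gave -1.25 to -0.58 for Btg2 in replicate 1. The difference between replicates passed for both genes: 2.88 (SE 0.43, edgeR adjusted p = 0.00718) for Jun and 2.10 (SE 0.26, adjusted p = 0.00359) for Btg2, where 0.289% of all genes passed. Over the plates of replicate 2 as scaled, all auxin plates were above all control plates for these 2 members (5.01% of genes) and below for none (6.03%).

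**Figure D4:**
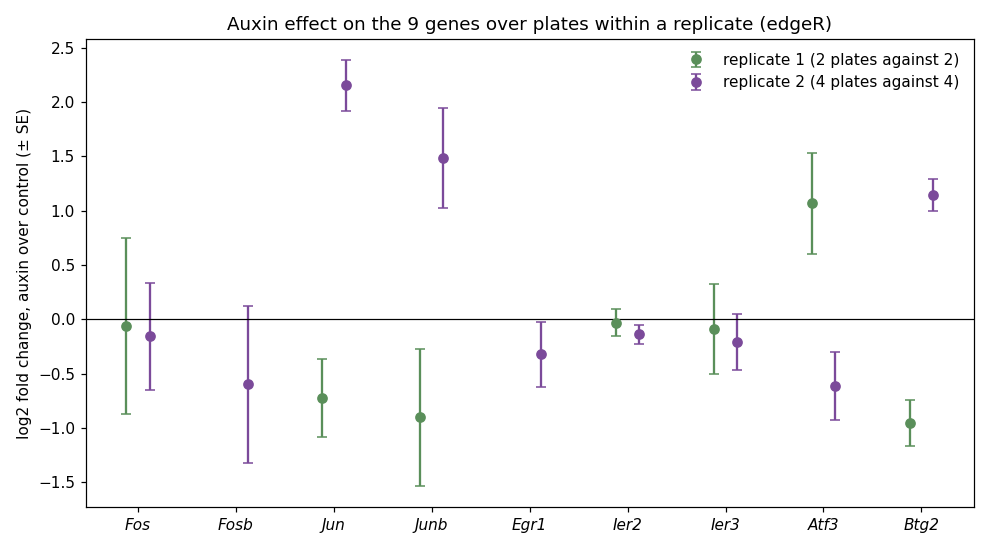
Log2 fold change of auxin over control from the plate sums (vertical axis, bars are ± SE) for each gene, replicate 1 and replicate 2 side by side. Jun and Btg2 are below 0 in replicate 1 and at 2.15 and 1.14 in replicate 2, and Fosb and Egr1 of replicate 1 are not drawn because their auxin plates were at 0.

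Without replicate 2, the blocked edgeR fit, also added after the data were seen, called 32 genes (0.191%) and no member. There Btg2 was at -0.85 (SE 0.18) with an adjusted p of 0.064 and Junb at -1.09 (SE 0.30) with an adjusted p of 0.229. Other values moved with the auxin plates of replicate 2 beside Jun and Btg2. On them, where 1.98% of all genes passed, Dnajb1 and Hspa1a, 2 of 10 heat shock genes, rose by 0.89 and 2.20. Dppa5a, Esrrb and Nanog, 3 of 8 ES cell markers, fell by 0.79, 1.41 and 0.63. Sox2 is among those 8, was listed at 0 in replicate 2 and could not change there. Eomes, 1 of 3 tested mesoderm markers, also passed as lower, from 1.73 to 0.059 CPM, and fewer wells passed the gene filter. The fibroblast markers summed to 14.3 CPM in control and 27.3 in auxin cells of replicate 2 and the neural markers to 42.8 and 61.8, with none of either list passing. Their part in the result was not tested.

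Lists of related genes were scored in the same fits. None of 25 tested of the 32 other immediate early genes passed over 3 replicates, and the lowest unadjusted p belonged to Sik1 (-0.87, SE 0.59), Plk2 (1.01, SE 0.70) and Arc (-1.29, SE 0.96). Over the plates of replicate 2, 2 of 30 rose, beside 1.98% of all genes called in either direction: Plk2, a polo-like kinase, by 1.94 (SE 0.13) and Cyr61, a secreted matrix protein, by 1.39. None of the 12 ERK feedback genes passed in any of these fits. The lowest p of that list over 3 replicates belonged to Spry4 (-2.21, SE 1.10), Dusp5 (-1.31, SE 0.66) and Dusp1 (-0.17, SE 0.30). None of 15 upstream regulators, such as the gene of serum response factor, Srf, passed. Elk1, Mapk9 and Mapk14 came nearest over 3 replicates, at 0.35 (SE 0.33), 0.34 (SE 0.26) and -0.25 (SE 0.24). Of the AP-1 dimer partners, 0 of 10 tested passed over 3 replicates, with Atf5 (0.54), Jdp2 (1.34) and Mafk (0.41) nearest, and in replicate 2 Atf4, the amino acid stress factor, fell by 0.84. Of 9 heat shock genes tested over 3 replicates none passed, and Hspa1a was nearest at 1.03 (SE 1.15), followed by Dnajb1 (0.11) and Hsp90aa1 (-0.17).

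Coexpression was described by Spearman correlation of UMI counts across cells, averaged over pairs with UMIs for both genes in both conditions. In replicate 1, 21 pairs averaged 0.079 in control and 0.035 in auxin cells. In replicate 2, 36 pairs averaged 0.057 and 0.107, and in replicate 3, 28 pairs averaged 0.018 and 0.012. The unthinned mean was therefore higher with auxin in 1 of 3 replicates. The difference over 3 replicates, 0.000041 ± 0.048 (SD, n = 3), was much smaller than its spread. The replicates do not cover the same pairs: those of Fosb and Egr1 are missing from replicate 1 and those of Fos from replicate 3. Fosb and Egr1 lay within the background in replicate 3, and their pairs are part of its mean. Within replicate 2 the mean of a control plate was 0.033 to 0.084 and that of an auxin plate 0.082 to 0.124, a slight overlap. Given the cell's UMI count (partial correlation), control plates were at -0.0022 to 0.034 and auxin plates at 0.044 to 0.117, with no overlap. Thinned, they were at -0.0028 to 0.039 and 0.030 to 0.085, which overlap. In replicate 1 the partial means went the other way, at 0.073 and 0.063 on control and 0.042 and 0.041 on auxin plates. These cover 36 pairs on 1 control plate and 21 on the other plates. How often other sets of genes separate so was not computed, so the gap is not read as particular to these genes. Thinned to 20000 UMIs, replicate 1 averaged 0.046 and 0.017, replicate 2 averaged 0.013 and 0.057, and replicate 3 (21 pairs) averaged -0.027 and 0.028, higher with auxin in 2 of 3. In these sparse counts most pairs stayed near 0. The unthinned values share the depth of the cells: Ier2 correlated with 9418 expressed genes at 0.313 on average in the control cells of replicate 2, above its mean of 0.138 with the other members. Jun in auxin cells of replicate 2 was at 0.119 with members and 0.036 with expressed genes, and in control cells at 0.0098 and 0.026. In those auxin cells Fos, Fosb, Junb and Egr1 were also higher with members, and Ier2, Ier3, Atf3 and Btg2 were lower.

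The highest unthinned pair in replicate 2 was Egr1 with Ier2, at 0.304 in control and 0.460 in auxin cells, and thinning left 0.071 and 0.245. Fos-Egr1 was at 0.244 and 0.260, and thinned at 0.063 and 0.172. Of the thinned replicate 2 cells, Fos was found in 16 of 157 Egr1-positive and 14 of 206 Egr1-negative control cells, and in 12 of 77 and 14 of 200 auxin cells. Fos was the more frequent in Egr1-positive cells on 6 of 8 plates, as were Junb and Ier2, whereas Jun and Atf3 were so on 3 of 8. Jun with Btg2 was at 0.098 and 0.207, and thinned cells held both in 10 of 363 control cells, where their shares alone gave 7.23, and in 32 of 277 auxin cells, where they gave 26.3, so that the ratio was 1.38 in control and 1.21 in auxin cells.

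**Figure D5:**
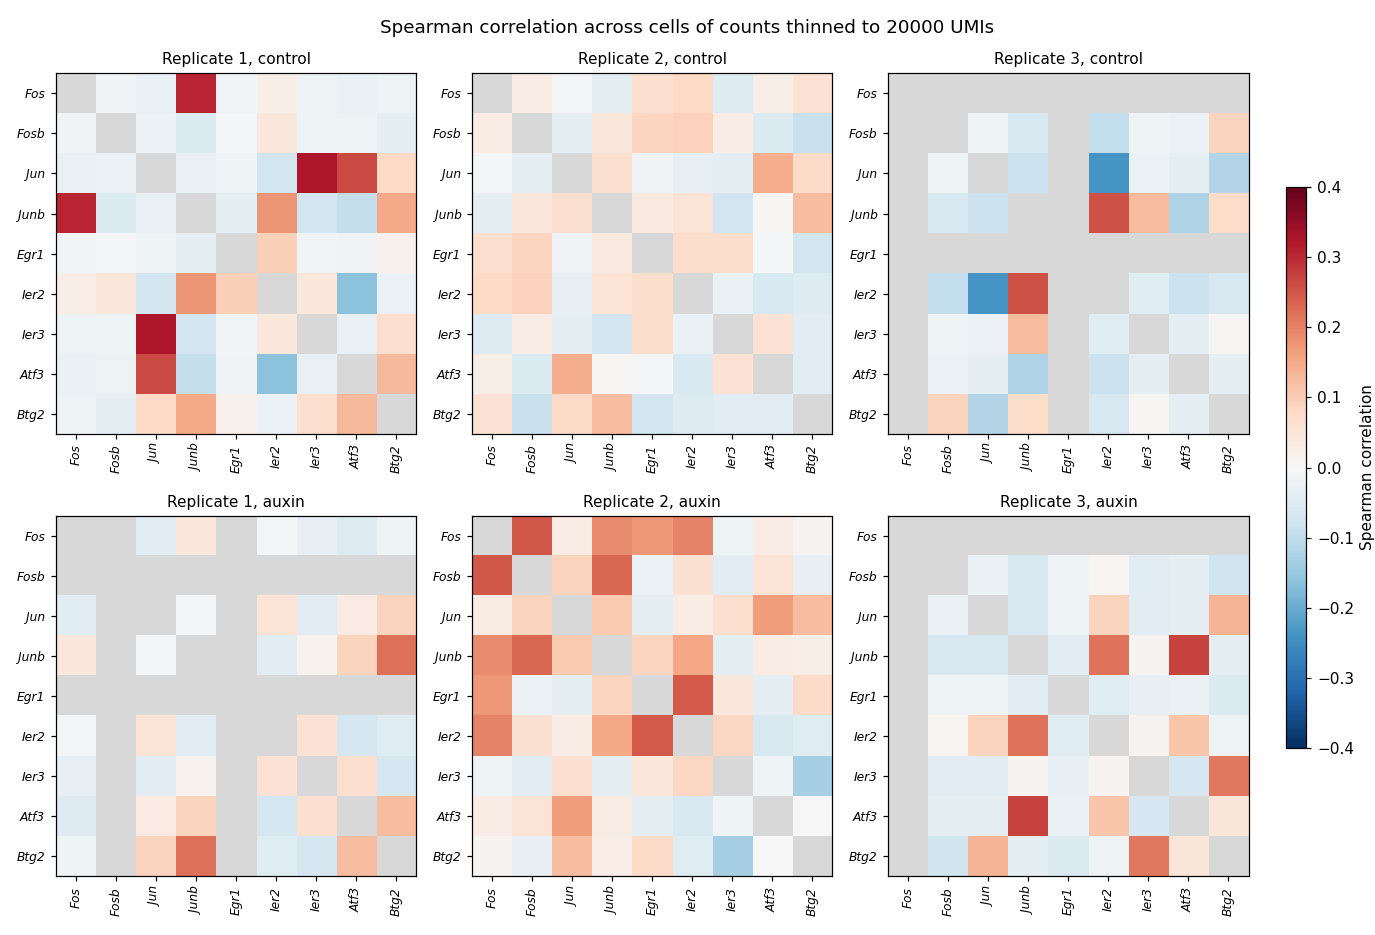
Spearman correlation across cells of counts thinned to 20000 UMIs for each pair of the 9 genes (colour scale from -0.4 to 0.4) by replicate and condition, grey where a gene had no UMI. Most squares are near 0, and the auxin panel of replicate 2 has more red squares than its control panel, with means of 0.057 and 0.013.

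The 2 cis pairs did not move alike. Junb with Ier2 was at 0.264 in control and 0.025 in auxin cells of replicate 1, at 0.137 and 0.264 in those of replicate 2, and at 0.296 and 0.276 in those of replicate 3, a mean difference of -0.044 ± 0.184 (SD, n = 3). Atf3 with Btg2 was at 0.059 and 0.201 in replicate 1, at 0.073 and 0.128 in replicate 2, and at 0.036 and 0.159 in replicate 3. It was higher with auxin in 3 of 3 replicates, by 0.107 ± 0.046 (SD, n = 3), but after thinning by 0.041 ± 0.046. The share of other gene pairs that were higher in 3 of 3 was not computed. In replicate 3, Atf3 was found unthinned in only 7 of 85 control and 8 of 84 auxin cells. The trans pairs of replicate 1 averaged 0.070 and 0.026, those of replicate 2 averaged 0.054 and 0.102, and those of replicate 3 averaged 0.0064 and -0.0037. There were 2 cis pairs, too few to set against the trans pairs.

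Codetection counts how many members a cell holds. On average, thinned control and auxin cells held 1.83 and 1.69 of the 9 members (replicate 1), 2.15 and 2.32 (replicate 2), and 1.65 and 1.49 (replicate 3). The variance of that number over the sum of the members' own binomial variances, which is 1 when they occur independently, was 1.22 and 1.21, 1.07 and 1.204, and 0.93 and 1.16 in the same order. The difference of auxin from control, 0.118 ± 0.121 (SD, n = 3), was about as large as its SD, and was 0.051 ± 0.216 unthinned and 0.017 ± 0.183 at 50000 UMIs. Replicate 1 was lower with auxin at each depth. Cells with 4 or more members made up 8.54% of control and 13.4% of auxin cells of replicate 2 and at most 2.96% elsewhere.

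For members with a mean of at least 1 UMI per cell, the genes whose CPM per cell correlated best with theirs were named. For Btg2 these were Mdm2, a ubiquitin ligase, at a mean Spearman correlation of 0.377 over the 6 replicate and condition sets (lowest 0.246, highest 0.526), and Plk2 at 0.366 (0.213 to 0.485). Both also rose on the auxin plates of replicate 2 in edgeR, Mdm2 by 1.68 (SE 0.15, adjusted p = 3.93e-05) and Plk2 by 1.94 (SE 0.13, adjusted p = 5.78e-06). Their levels in control and auxin cells were 91.6 and 119 CPM for Mdm2 and 46.7 and 30.7 for Plk2 in replicate 1, 98.5 and 322 for Mdm2 and 54.9 and 216 for Plk2 in replicate 2, and 103 and 106 for Mdm2 and 31.5 and 47.0 for Plk2 in replicate 3. The other members had weaker neighbours. Jun was nearest to Mprip (0.133) and Bex3 (0.128), Junb to Ass1 (0.151) and Nrxn2 (0.140), Ier2 to Trim27 (0.193) and Nsd3 (0.184), and Atf3 to Clgn (0.166) and Asns (0.166). Egr1 was nearest to Gm42666 (0.179) and Ppfia4 (0.166) over 5 sets, of which 3 had at most 2 Egr1-positive cells. Cells of a set share a replicate and a condition and are not independent replicates, so these values carry no p.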

How the data were processed

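Smart-SCRB counts of control and auxin cells were used as deposited: the authors removed adapters, tagged reads with well barcode and UMI, aligned them to mm10 and deposited raw UMI counts per gene and well. The aligner, counter and annotation are not given in the sources used here. Deposited annotation gave detected gene counts, the percent of spike-in counts and, per plate, reads and the fraction of repeated UMIs (saturation), which ran from 0.283 to 0.579. Sorting and the cell filter limit doublets and empty wells, and no doublet caller was run. Spike-ins (92) and transgenes (11) stayed out of library sizes. Coordinates came from GENCODE M21.

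Sums over the cells of a replicate and condition were tested with edgeR 4.0.16 (R 4.3.3; TMM, filterByExpr, quasi-likelihood, no block), with DESeq2 1.42.0 as an alternative and Benjamini-Hochberg adjustment. The scripts were tested on simulated data. Fits on plate sums were added after the data were seen. Other scalings, filters, placements of the disputed plates and leaving out each replicate or plate were tried. Cells under 20000 UMIs (27) were left out of thinned values. Same-numbered control and auxin sums deviated together (correlations of 0.866, 0.824 and 0.666), so the numbers pair the samples. No label states separate animals or derivations for the replicates, so p-values measure only the spread between these cultures. Named genes were the members, for each member with a mean of at least 1 UMI its 2 best-correlated genes, and list genes passing an adjusted p of 0.05 or else the 3 with the lowest p. Members and lists were chosen with earlier results of these data known.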

Additional observations from a re-analysis of the deposited data

Results flagged for a closer look

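In edgeR over plates, the auxin effect of replicate 2 differed from that of replicate 1 by 2.88 (log2) for Jun and by 2.10 for Btg2, a difference tested as an interaction. Among 36 sets of 4 plates of replicate 2, of which chance marks about 1 in 20, 1 held a plate far from the others: Fos stood at 14.6 CPM on control plate 3 and at 9.02 to 9.78 on the other control plates. Some members were above the level of the control cells in wells under the gene filter, which entered only the alternative with all deposited cells. These wells pool both conditions and in replicate 2 came mostly from auxin plates, and other members were lower there, such as Ier2 in replicate 2 at 190 CPM against 457 in control cells. In the 107 such wells of replicate 2, Jun reached 359 CPM (142 UMIs in 3 wells, 102 of them in 1), Btg2 104 (41 UMIs in 3 wells), Fos 78.4 (31 UMIs in 1 well) and Egr1 70.8 (28 UMIs in 3 wells). In the 47 such wells of replicate 1, Jun reached 75.6 (7 UMIs in 2 wells), and in the 47 of replicate 3, Fos reached 51.8 (12 UMIs in 2 wells).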

How the results depend on the processing

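Over all genes, edgeR called 0 genes without the replicate block and 3 with it. DESeq2 with the replicate block called 61, and the block without replicate 2, added after seeing the data, called 32. Leaving out 1 replicate at a time gave 0 calls each time. In 124 alternative fits no member passed, with a lowest adjusted p of 0.064, and the edgeR block changed no member's call. Some of these fits could not pass, because DESeq2 gave no adjusted p. These were Fos, Fosb, Jun, Ier3 and Atf3 with the replicate block, and Egr1 without it. Directions that reversed, none past the threshold, were those of Jun without replicate 2 (-0.23, and -0.074 with the block), Btg2 without replicate 1 (0.52), Atf3 without replicate 1 (-0.48), Ier3 without replicate 3 (-0.18) and with the disputed plates placed as in the source values (-0.058), and Fos with that placement (0.02). Leaving out 1 replicate gave -0.23 to 1.90 for Jun, -0.90 to 0.52 for Btg2, -0.48 to 0.72 for Atf3, -0.18 to 0.67 for Ier3, -1.08 to -0.20 for Junb, -1.19 to -0.08 for Fosb and -0.44 to -0.13 for Fos. The codetection difference was 0.062 to 0.182. The cause was not tested. The Atf3 and Btg2 correlation difference fell to 0.041 after thinning. Leaving out 1 replicate gave mean pairwise correlation differences of -0.025 to 0.022. In 13 alternatives of the plate fit, all chosen after seeing the data (library totals, each plate left out), Jun and Btg2 kept their calls in replicate 2 and in the difference. Btg2 in replicate 1 passed in 1 of the 13, with effects from -1.25 to -0.58. Leaving out a plate of replicate 1 leaves 1 plate in that condition. Egr1 was removed by the filter without replicate 2, so no value is given there. Members at 1 to 5 positive cells per set are limited by depth and cell number.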
